A study of Mus musculus with 123 samples.

Results

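The citrate cycle enzymes described here are 9 genes, *Cs*, *Aco1*, *Idh1*, *Idh2*, *Idh3a*, *Suclg2*, *Fh1*, *Mdh2* and *Dlat*, taken by name from the platform annotation of a mouse liver microarray data set, and they are 9 of the 10942 genes tested. Each gene was read from its brightest transcript cluster, the probe set of the array for 1 locus, and all 9 passed the filter on low expression. Liver RNA came from female mice of 22 Collaborative Cross (CC) strains, recombinant inbred lines bred from 8 founder strains, with 1 array per mouse. All mice arrived at 6 to 9 weeks of age, ate a synthetic chow for 2 weeks and then either a high-protein (HP, 63 mice) or a high-fat high-sucrose (HS, 60 mice) diet for 8 weeks, and all were fasted for 4 h before the liver was taken. Each strain had 4 to 6 mice, and each of the 44 groups of 1 strain on 1 diet had 3, or 2 in the case of 9 groups. No group ate the chow throughout, so a difference between the diets does not show which of them moved a gene. Where a gene is said below to have risen or fallen with diet, it was higher or lower on HP than on HS. The values are log2 expression after robust multi-array average (RMA) normalization, and because each gene has its own probes, levels are compared between mice and not between genes.

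The citrate cycle runs in the mitochondrial matrix, where it oxidizes acetyl groups to carbon dioxide and passes the electrons to the respiratory chain. In liver it also takes in the carbon skeletons of amino acids, gives malate and oxaloacetate to glucose synthesis, and exports citrate, from which fatty acids and sterols are made in the cytosol. *Dlat* encodes the acetyl-transferring core of the pyruvate dehydrogenase complex, which feeds the cycle, and *Cs* encodes citrate synthase, its first step. *Idh3a* is the catalytic subunit of the NAD-dependent isocitrate dehydrogenase of the cycle, while *Idh2* and *Idh1* are the NADP-dependent isocitrate dehydrogenases of the mitochondrion and of the cytosol. *Suclg2* encodes the GTP-forming beta subunit of succinyl-CoA ligase, *Fh1* fumarase and *Mdh2* the mitochondrial malate dehydrogenase. *Aco1* is the cytosolic aconitase, which binds iron-responsive elements of messenger RNA when it has no iron-sulfur cluster.

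Promoters of 8 of the 9 genes were matched by symbol in a RefSeq table of mouse genome GRCm38.p6, with 9 windows of 250 bases before to 50 bases after a start site, since *Idh1* has 2 start sites. The windows were searched on both strands for CCAAT (the CCAAT box), GGGCGG (the GC box), TGACGTCA (the cyclic AMP response element), AAGGTCA (the core element of estrogen-related receptors), GCATGCGC (the core of the NRF1 site), CACGTG (an E box), TGATGNAA (an ATF4 element) and TCACNCCAC (a sterol element), and for CTCGCGAG, a palindrome added after the sequences were seen. Shown are the promoters of *Idh2* and *Idh1*, whose diet differences were unequal, and of *Fh1* and *Mdh2*, which were higher on the HP diet. That of *Suclg2*, which had the largest F between strains, is also shown. Matches of the CCAAT box, the GC box, the cyclic AMP response element and the palindrome are in capitals. None of these matches shared a base with a match of another of the 4 motifs. The sequences are those of the GRCm38.p6 genome, and the promoters of the CC strains were not read.
Idh2 promoter (chr7:80115301-80115600, minus strand): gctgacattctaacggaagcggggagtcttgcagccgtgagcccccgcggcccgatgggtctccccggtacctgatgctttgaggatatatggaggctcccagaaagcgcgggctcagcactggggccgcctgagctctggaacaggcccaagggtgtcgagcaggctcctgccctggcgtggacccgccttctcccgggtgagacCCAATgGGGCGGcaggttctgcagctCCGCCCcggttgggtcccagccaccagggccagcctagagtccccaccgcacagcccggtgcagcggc
Idh1 promoter (chr1:65186430-65186729, minus strand): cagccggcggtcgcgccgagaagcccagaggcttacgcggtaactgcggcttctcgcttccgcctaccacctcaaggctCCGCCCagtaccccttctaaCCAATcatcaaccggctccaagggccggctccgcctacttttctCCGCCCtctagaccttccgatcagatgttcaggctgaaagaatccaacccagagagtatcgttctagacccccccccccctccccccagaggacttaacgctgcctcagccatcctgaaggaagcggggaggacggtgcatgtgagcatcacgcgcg
Fh1 promoter (chr1:175625586-175625885, minus strand): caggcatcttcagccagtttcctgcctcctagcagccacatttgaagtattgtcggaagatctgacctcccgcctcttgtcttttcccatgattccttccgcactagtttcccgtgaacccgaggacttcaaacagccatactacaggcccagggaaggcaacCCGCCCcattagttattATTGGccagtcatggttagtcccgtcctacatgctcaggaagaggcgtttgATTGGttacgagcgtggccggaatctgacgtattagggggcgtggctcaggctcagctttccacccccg
Mdh2 promoter (chr5:135778399-135778698, plus strand): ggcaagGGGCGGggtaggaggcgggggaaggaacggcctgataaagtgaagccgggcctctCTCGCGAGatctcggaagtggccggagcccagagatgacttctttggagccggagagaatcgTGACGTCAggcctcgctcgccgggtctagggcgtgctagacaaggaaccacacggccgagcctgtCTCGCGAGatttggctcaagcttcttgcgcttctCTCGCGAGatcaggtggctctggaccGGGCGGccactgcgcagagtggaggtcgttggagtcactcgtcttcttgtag
Suclg2 promoter (chr6:95718797-95719096, minus strand): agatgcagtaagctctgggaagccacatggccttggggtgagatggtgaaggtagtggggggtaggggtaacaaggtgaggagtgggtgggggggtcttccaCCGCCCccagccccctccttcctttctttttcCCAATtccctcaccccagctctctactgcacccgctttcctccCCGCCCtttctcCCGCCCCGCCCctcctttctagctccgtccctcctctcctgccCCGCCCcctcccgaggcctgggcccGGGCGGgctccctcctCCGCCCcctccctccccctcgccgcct

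A GC box stood in all 9 windows, against 35.7% of the 32851 promoters of the table, and 7 matches of it stood in *Suclg2*. A CCAAT box stood in *Idh2*, *Fh1*, *Suclg2*, *Cs* and 1 of the 2 *Idh1* windows, against 37.4% of all promoters. That *Idh1* window is the 1 printed above, and the other (chr1:65179093-65179392, minus strand) held 1 GC box. The 3 matches of the palindrome in *Mdh2* and its 1 cyclic AMP response element had no counterpart in the other 8 windows. Of all promoters, 0.919% held the palindrome and 1.79% the response element. The element of estrogen-related receptors (4.72% of all promoters), the NRF1 core (2.71%), the E box (7.15%), the ATF4 element (3.97%) and the sterol element (1.24%) had 0 matches in the 9 windows. GC content of the windows ran from 54.3% in *Fh1* to 68.3% in *Idh2*, above the median of 52.7% over the table.

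Before the comparisons, the mice were checked against their labels. Each mouse but 1 correlated best with the rest of its own strain, the exception being a CC059/TauUnc mouse on the HS diet, which correlated with its own strain at r = 0.127 and with CC035/Unc at r = 0.738. *Xist* was 2.72 in a CC071/TauUnc mouse on the HP diet and 9.16 to 10.62 in the others, although all mice are labelled female. All 8 hepatocyte markers were above the expression filter, with a mean level of 12.1 to 12.3 on the HP and 11.9 to 12.3 on the HS diet, while all 6 skeletal muscle markers were below it. Of 4 measured adipocyte markers *Adipoq*, *Lep* and *Plin1* were below it and *Fabp4* was above it, at 5.85 on HP and 5.87 on HS. The 3 measured markers of pancreatic acinar cells (*Cel*, *Cpa1* and *Ctrb1*) had a mean above the expression floor of 4.08 in 4 mice, 2 per diet, the highest at 11.26 against a median of 2.55. Without the first 2 mice, or without these 4, all 5 diet calls given below were kept, as were the 9 calls by strain. Precision is limited by the number of mice, since an array gives no read depth.

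Diet was compared first, as the difference HP minus HS with diet as the only term of a limma fit across all genes. Of the 9 citrate cycle enzymes, 5 had higher expression on the HP diet (*Idh2*, *Dlat*, *Fh1*, *Idh3a* and *Mdh2*), 0 had lower expression and 4 did not pass (*Suclg2*, *Aco1*, *Idh1* and *Cs*), at a Benjamini-Hochberg adjusted p under 0.05. Over all genes tested, 6.28% were higher and 5.13% were lower on the HP diet. This split, 687 of 1248 calls on the higher side, became 947 of 1336 when each array was centred on its median, with the same 5 enzymes called. The median difference was 0.076 (log2) over the 9 enzymes and −0.0078 over all genes. With strain as a block, so that mice are compared within strains, the counts were again 5 higher and 0 lower, against 11.5% higher and 11.7% lower of all genes. The sizes were modest, from 1.05-fold in *Mdh2* to 1.26-fold in *Idh2*, and for every one of the 9 genes the 2 diets overlapped. As background for the strain counts below, 12.1% of all genes had HP higher in 18 or more strains or lower in 18 or more.

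*Idh2* (transcript cluster 17492478) had the largest diet difference of the 9. On the HP diet it ran from 8.78 through a median of 9.53 to 10.11, and on the HS diet from 8.44 through 9.24 to 9.81. Of the 63 HP mice, 50 lay above the HS median and 19 above the highest HS mouse. The means were 9.54 ± 0.34 (SD, n = 63) and 9.21 ± 0.34 (SD, n = 60), and the difference was 0.33 (standard error 0.061, limma adjusted p = 2.7e-05). HP was higher in 21 of 22 strains, the exception being CC024/GeniUnc at −0.09, and the strain with the largest difference was CC019/TauUnc at 0.70.

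*Idh1* (transcript cluster 17223863), the cytosolic counterpart, did not pass. It ran from 9.53 through a median of 10.14 to 10.97 on the HP diet and from 9.61 through 10.15 to 10.71 on the HS diet, so that the HS range lay inside the HP range. Its difference was 0.014 (95% confidence interval −0.077 to 0.11, limma adjusted p = 0.89), with HP higher in 11 strains and lower in 11. Within a mouse, the log2 ratio of *Idh2* to *Idh1* was higher on the HP diet by 0.32, in 20 of 22 strains (2-sided permutation test of the diet labels within strains, adjusted p = 5e-05 over 10 gene pairs). The raw p of that test, 1e-05, is the smallest that 100000 permutations can give. These 10 pairs, which hold every ratio given below, were chosen with their diet differences known. Their adjusted p-values, over the chosen pairs alone, therefore describe the ratios and are not independent support for the diet calls.

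*Idh3a* (transcript cluster 17517390) was between 6.65 and 7.77 on the HP diet, with a median of 7.12, and between 6.26 and 7.54 on the HS diet, with a median of 6.94. The HS diet held the 5 lowest mice and the HP diet the 4 highest. The difference was 0.19 (standard error 0.044, limma adjusted p = 9.6e-04), and 20 of 22 strains had the higher mean on HP. The other subunits of the same enzyme, *Idh3b* (0.087, adjusted p = 0.084) and *Idh3g* (0.017, adjusted p = 0.68), were not called by limma, while with strain as a block *Idh3b* was (0.092, adjusted p = 0.0073). The ratio of *Idh3a* to *Idh3g* was higher on the HP diet by 0.175 (permutation adjusted p = 1.3e-04, 18 of 22 strains) and that of *Idh3a* to *Idh3b* by 0.105 (permutation adjusted p = 0.043, 14 of 22 strains).

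*Dlat* (transcript cluster 17526861) ran from 6.93 through a median of 7.50 to 8.20 on the HP diet and from 6.58 through 7.29 to 7.98 on the HS diet. The 10 lowest mice were HS mice and the 6 highest HP mice. The means were 7.51 ± 0.29 (SD, n = 63) and 7.27 ± 0.30 (SD, n = 60), with a difference of 0.24 (standard error 0.053, limma adjusted p = 6.9e-04) and HP higher in 20 of 22 strains. The genes of the component that *Dlat* works with, *Pdha1* (0.054, adjusted p = 0.43) and *Pdhb* (0.012, adjusted p = 0.92), were not called by limma. Relative to *Pdhb* in the same mouse *Dlat* was higher on the HP diet by 0.227 (permutation adjusted p = 4e-04), and relative to *Pdha1* by 0.185 (permutation adjusted p = 9e-04), in 19 of 22 strains each. The *Dlat* call ended when replicate 2 of every strain and diet was left out (limma adjusted p = 0.051). Without replicate 1 the *Idh3a* call ended (limma adjusted p = 0.058). Replicate numbers only count the mice of a strain and diet in sample order, and each of these fits dropped 1 mouse per group. Over the 3 fits without a replicate, calls over all genes by diet were 430 to 964, against 1248 with all mice.

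*Fh1* (transcript cluster 17230153) was between 9.36 and 10.33 on the HP diet, with a median of 9.79, and between 9.22 and 10.37 on the HS diet, with a median of 9.57. The highest mouse of all was an HS mouse, the 10 lowest were HS mice, and 52 of 63 HP mice lay above the HS median. The difference was 0.22 (standard error 0.042, limma adjusted p = 6.7e-05), and 21 of 22 strains had the higher mean on HP. Single strains ran from −0.06 in CC032/GeniUnc to 0.64 in CC002/Unc. *Mdh2* (transcript cluster 17443310) showed the smallest called difference, 0.076 (standard error 0.025, limma adjusted p = 0.035), with means of 9.69 ± 0.13 (SD, n = 63) and 9.62 ± 0.14 (SD, n = 60) and HP higher in 18 of 22 strains. Its range was 9.36 to 10.15 on the HP and 9.30 to 9.999 on the HS diet. The *Mdh2* call did not hold throughout, and ended without 8 of the 22 strains left out in turn (CC001/Unc, CC012/GeniUnc, CC019/TauUnc, CC024/GeniUnc, CC036/Unc, CC040/TauUnc, CC041/TauUnc and CC071/TauUnc, adjusted p 0.054 to 0.076). *Mdh1*, the cytosolic malate dehydrogenase, rose by 0.16 (adjusted p = 3.3e-06), and the ratio of *Mdh2* to *Mdh1* was lower on the HP diet by 0.079 on the log2 scale (permutation adjusted p = 0.026, *Mdh2* ahead in 6 of 22 strains).

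**Figure D1:**
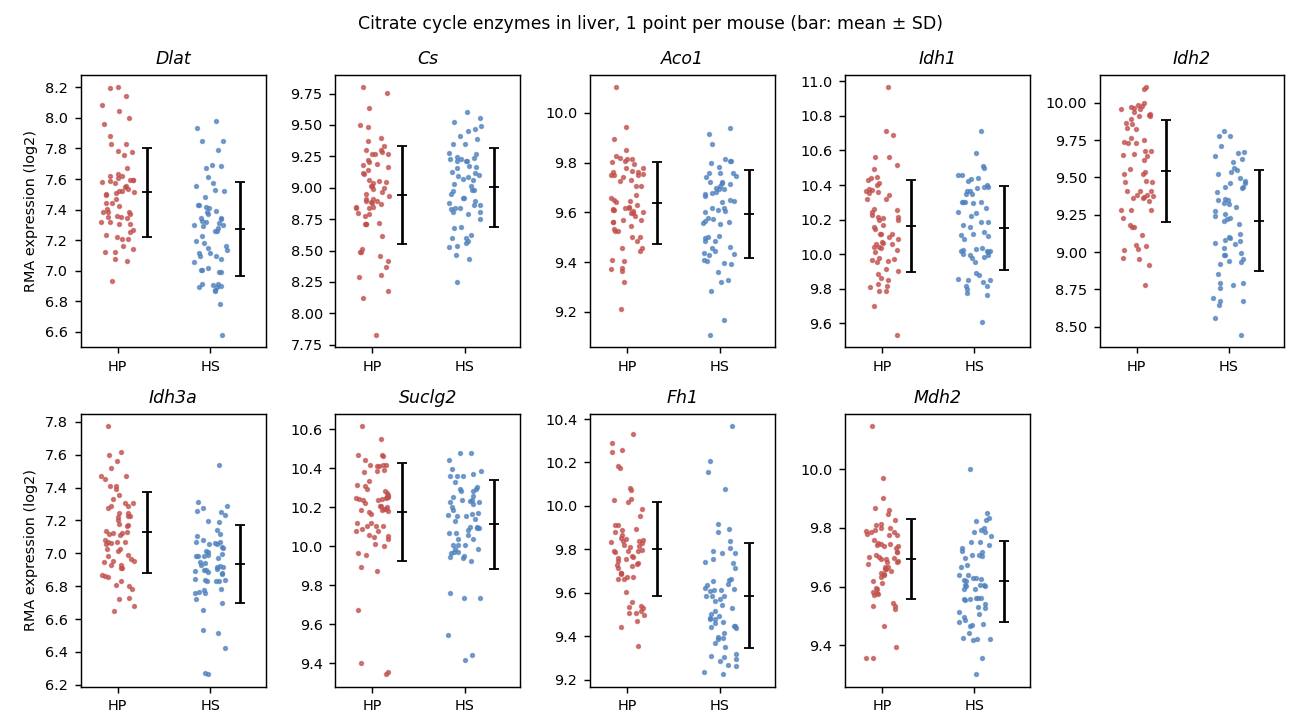
Expression of the 9 citrate cycle enzymes (RMA, log2) in each mouse on the high-protein (HP, n = 63) and the high-fat high-sucrose (HS, n = 60) diet, with the mean ± SD beside the points. The HP points sit higher for *Idh2*, *Dlat*, *Fh1* and *Idh3a*, while both diets overlap in every panel.

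Of the 4 enzymes that did not pass, *Suclg2* (transcript cluster 17469259) had a difference of 0.063 (95% confidence interval −0.023 to 0.15, limma adjusted p = 0.38), was higher on HP in 18 of 22 strains, and differed by 0.056 with strain as a block (adjusted p = 0.090). Its partner *Suclg1*, the shared alpha subunit (0.14, adjusted p = 0.0048), and *Sucla2*, the ATP-forming beta subunit (0.12, adjusted p = 0.0061), rose. The ratio of *Suclg2* to *Suclg1* was lower on the HP diet by 0.075 on the log2 scale (permutation adjusted p = 0.015, *Suclg2* ahead in 6 of 22 strains), and that of *Suclg2* to *Sucla2* by 0.053 (permutation adjusted p = 0.043, ahead in 7). *Aco1* (transcript cluster 17412730) had means of 9.64 ± 0.16 (SD, n = 63, HP) and 9.59 ± 0.18 (SD, n = 60, HS), and its difference was 0.046 (95% confidence interval −0.016 to 0.11, limma adjusted p = 0.38). *Ireb2*, the second iron regulatory protein, rose by 0.22 (adjusted p = 3.6e-08, HP higher in 22 of 22 strains). The log2 ratio of *Aco1* to *Ireb2* was lower on the HP diet by 0.173 (permutation adjusted p = 5e-05), and *Aco1* was ahead in 1 of 22 strains. *Cs* (transcript cluster 17238433) had means of 8.94 ± 0.39 (SD, n = 63, HP) and 9.01 ± 0.31 (SD, n = 60, HS). Its difference of −0.065 (95% confidence interval −0.19 to 0.061, limma adjusted p = 0.58) ran from −0.37 in CC045/GeniUnc to 0.37 in CC037/TauUnc, with HP higher in 9 strains. The ratio of *Cs* to *Acly*, which splits citrate in the cytosol, was not called (−0.134, permutation adjusted p = 0.16).

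**Figure D2:**
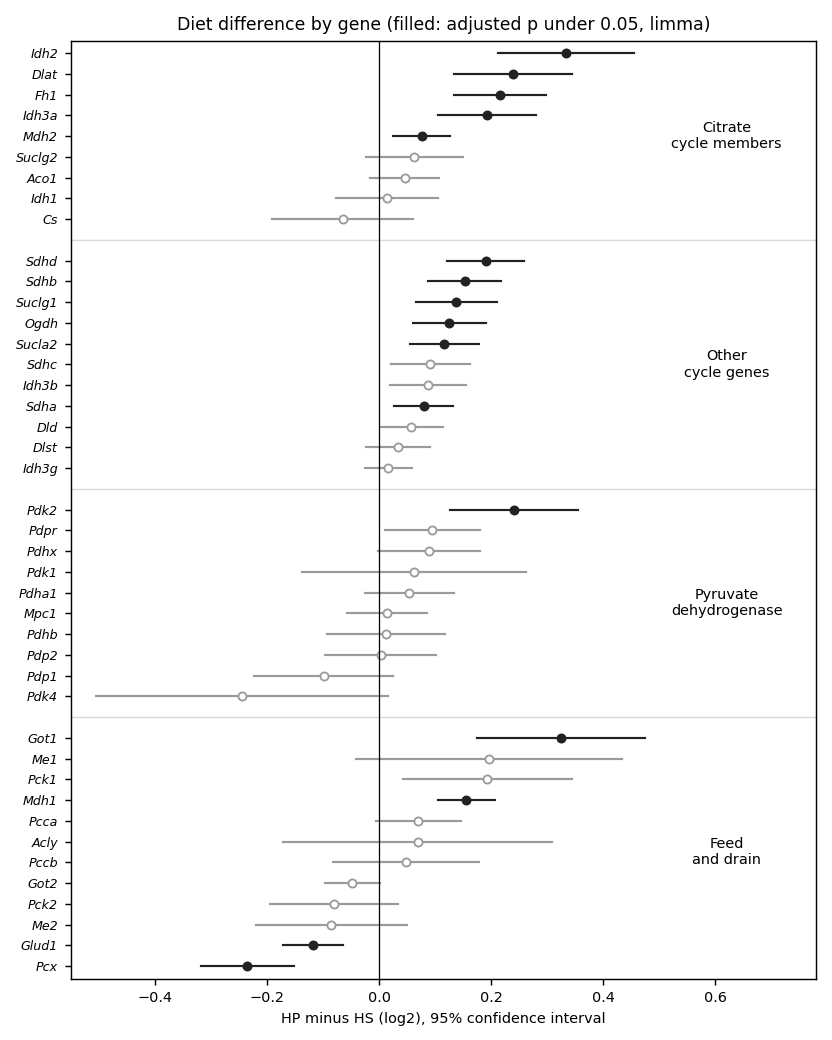
Difference HP minus HS (log2, horizontal axis) with its 95% confidence interval for the citrate cycle enzymes, the other cycle genes, the pyruvate dehydrogenase genes and the enzymes that feed or drain the cycle, where filled points passed limma's test. *Idh2* lies farthest right in its group at 0.33, and *Pcx* farthest left of the called genes at −0.23.

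The rest of the cycle was read from a list of 11 other measured genes, of which 6 were higher on the HP diet, 0 lower and 5 did not pass, with a median difference of 0.091. Of succinate dehydrogenase, which also belongs to the respiratory chain, *Sdhd* (0.19, adjusted p = 2.5e-05), *Sdhb* (0.15, adjusted p = 4.7e-04) and *Sdha* (0.080, adjusted p = 0.036) rose, and *Sdhc* was at 0.091 (adjusted p = 0.080). The fit with strain as a block called 8 of the 11 higher and 0 lower, adding *Idh3b* and *Sdhc* (0.082, adjusted p = 0.040). *Ogdh*, of the oxoglutarate dehydrogenase complex, rose by 0.13 (adjusted p = 0.0050). Of 10 genes of the pyruvate dehydrogenase complex, its control and pyruvate import, 1 was higher, the inhibiting kinase *Pdk2* (0.24, adjusted p = 0.0017), and 0 were lower. The block fit added *Pdhx*, the subunit that docks a further enzyme to the *Dlat* core (0.099, adjusted p = 0.041, HP higher in 17 of 22 strains).

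Among 12 enzymes that feed or drain the cycle, 2 rose and 2 fell on HP against HS. The aspartate aminotransferase *Got1* (0.32, adjusted p = 0.0012) and *Mdh1* rose. *Pcx*, pyruvate carboxylase, which makes oxaloacetate from pyruvate, was lower (−0.23, adjusted p = 1.6e-05, HP higher in 1 of 22 strains), as was *Glud1*, glutamate dehydrogenase (−0.12, adjusted p = 0.0010). Of 9 carriers, the oxoglutarate carrier *Slc25a11* rose (0.19, adjusted p = 6.2e-06) and *Slc13a3*, a dicarboxylate transporter, fell (−0.57, adjusted p = 6.7e-05), while the citrate carrier *Slc25a1* stood at 0.016 (adjusted p = 0.89). Of 9 genes of fat synthesis and its supply, the desaturase *Scd1* rose (0.45, adjusted p = 1.0e-04) and the pyruvate kinase *Pklr* fell (−0.57, adjusted p = 2.0e-09). Of the 2 measured genes of hydroxyglutarate metabolism, *Adhfe1* rose by 0.22 (adjusted p = 5.4e-04) and *D2hgdh* was not called (0.021, adjusted p = 0.82). Among 5 measured genes of iron handling *Ireb2* was the 1 called. With strain as a block, further calls in these lists were the gluconeogenic enzyme *Pck1* (0.20, adjusted p = 0.016), the carrier *Slc25a12* (0.083, adjusted p = 0.014) and the transferrin receptor *Tfrc* (0.21, adjusted p = 0.048) on the higher side, and the citrate transporter *Slc13a5* (−0.29, adjusted p = 0.014) and the iron exporter *Slc40a1* (−0.10, adjusted p = 0.028) on the lower side.

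Of 10 genes of mitochondrial content and its control, 6 were called higher on HP and 0 lower, with a median of 0.11 (7 higher and 0 lower in the block fit). *Hspa9*, a mitochondrial chaperone, differed by 0.15 (adjusted p = 5.2e-09) and the coactivator *Ppargc1a* by 0.35 (adjusted p = 1.1e-04). Other measures moved with diet beside these genes. Of 10 Kupffer cell and macrophage markers, 0 were higher and 3 were lower with HP (9 lower with strain as a block), and their mean level ran from 5.59 to 7.96 on the HP and from 6.49 to 8.52 on the HS diet. The 8 markers of stellate cells gave 0 higher and 2 lower calls (4 lower ones in the block fit), and those of sinusoidal endothelium gave 0 either way (1 lower in the block fit). In whole liver, fewer cells of a type and less RNA per cell cannot be told apart. Hepatocyte markers differed in mean level by 0.034, with 1 of 8 higher (2 higher and 1 lower in the block fit). The 1 called was *Cps1* (0.20, limma adjusted p = 9.8e-09), and the median difference over the 8 markers was −0.0047. A score of 9 clock genes was 0.22 ± 1.0 (SD, n = 63, HP) and −0.23 ± 0.95 (SD, n = 60, HS), and with it as a covariate 4 of the 5 enzymes were called, *Mdh2* being lost (adjusted p = 0.061). The part of Kupffer and stellate cell RNA in the diet differences was not tested.

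Strain was compared next, with an F test of the 22 strains. All 9 enzymes differed between strains by limma, as did 81.3% of all genes tested (82.2% with diet as a covariate), so that the count is near the background. Single strains decided some of these calls: *Mdh2* was not called without CC008/GeniUnc, CC011/Unc or CC037/TauUnc, nor *Idh3a* without CC004/TauUnc. The F ran from 1.95 in *Mdh2* (adjusted p = 0.019) and 2.07 in *Idh3a* (adjusted p = 0.012) to 12.503 in *Suclg2* (adjusted p = 7.3e-19), against a median of 3.1 over all genes. The intraclass correlation, the share of the variance between strains after the diet difference was taken out, was 0.70 in *Suclg2*, 0.64 in *Idh2*, 0.54 in *Cs*, 0.53 in *Dlat* and 0.47 in *Idh1*. It was 0.34 in *Fh1*, 0.32 in *Aco1*, 0.20 in *Idh3a* and 0.19 in *Mdh2*, beside a median of 0.29 over all genes. The F with diet as a covariate, to which these shares belong, was 11.1 in *Idh2* and 7.61 in *Cs*, against 6.67 and 7.53 with strain alone, so that the order of these genes turned. When each diet was tested alone, *Suclg2*, *Idh2*, *Cs*, *Dlat* and *Idh1* differed between strains on both diets, *Aco1* on the HP diet (adjusted p = 0.030), *Fh1* on the HS diet (adjusted p = 0.0016), and *Idh3a* and *Mdh2* on neither. The probes were not checked for sequence variants between the strains.

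*Suclg2* was set apart by 1 strain. In CC028/GeniUnc its 6 mice were at 9.35, 9.34 and 9.40 on the HP and 9.55, 9.42 and 9.44 on the HS diet, a mean of 9.42, while the strain next in order, CC001/Unc, had a mean of 9.95. The highest of these 6, at 9.55, lay below the lowest mouse of the other strains, at 9.67. The step of 0.53 was the only one, among the 21 steps between neighbours of each of the 9 genes, that was larger than the SD between mice of a strain (0.13 for *Suclg2*). Above it the means rose in small steps to 10.40 in CC012/GeniUnc. Without CC028/GeniUnc the F of *Suclg2* dropped to 4.52 (adjusted p = 6.4e-07). A second transcript cluster named *Suclg2* (17548514), dimmer at a mean of 4.76, also had its lowest mean over both diets in CC028/GeniUnc (4.20, against a median of 4.79 over strains and the expression floor of 4.08). On the HS diet alone CC001/Unc was lower there (4.24) than CC028/GeniUnc (4.27). The second cluster differed between strains (F = 2.82, adjusted p = 4.9e-04).

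*Cs* had the widest strain means of the 9, from 8.35 in CC008/GeniUnc to 9.55 in CC037/TauUnc, a span of 2.3-fold (F = 7.53, adjusted p = 2.9e-12). The CC008/GeniUnc mice were at 8.31, 7.83 and 8.37 on the HP and 8.60 and 8.46 on the HS diet. Those of CC037/TauUnc were at 9.64, 9.76 and 9.80 and at 9.35, 9.23 and 9.52. The 2 strains did not overlap, and CC008/GeniUnc was lowest on each diet. CC002/Unc (8.54) and CC030/GeniUnc (8.55) followed at the low end and CC012/GeniUnc (9.33) at the high end, and no neighbours in the order differed by more than the SD within strains (0.24).

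*Idh2* was lowest in CC028/GeniUnc too (8.81), on both diets, and highest in CC001/Unc (9.84) and CC041/TauUnc (9.83), with F = 6.67 (adjusted p = 6.8e-11). On the HP diet the CC028/GeniUnc mice were at 9.05, 8.91 and 9.02 and the CC001/Unc mice at 9.83, 9.91 and 10.11. On the HS diet they were at 8.44, 8.67 and 8.78 and at 9.60, 9.81 and 9.78. The span between these strains, 1.03, was larger than the diet difference of the gene, 0.33. *Dlat* was highest in CC037/TauUnc (7.88), CC012/GeniUnc (7.85) and CC006/TauUnc (7.83), and lowest in CC036/Unc (7.05) and CC071/TauUnc (7.09), with F = 5.44 (adjusted p = 7.2e-09). *Idh1* ran from 9.80 in CC030/GeniUnc to 10.59 in CC006/TauUnc (F = 5.99, adjusted p = 8.5e-10), and these strains were lowest and highest on each diet.

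**Figure D3:**
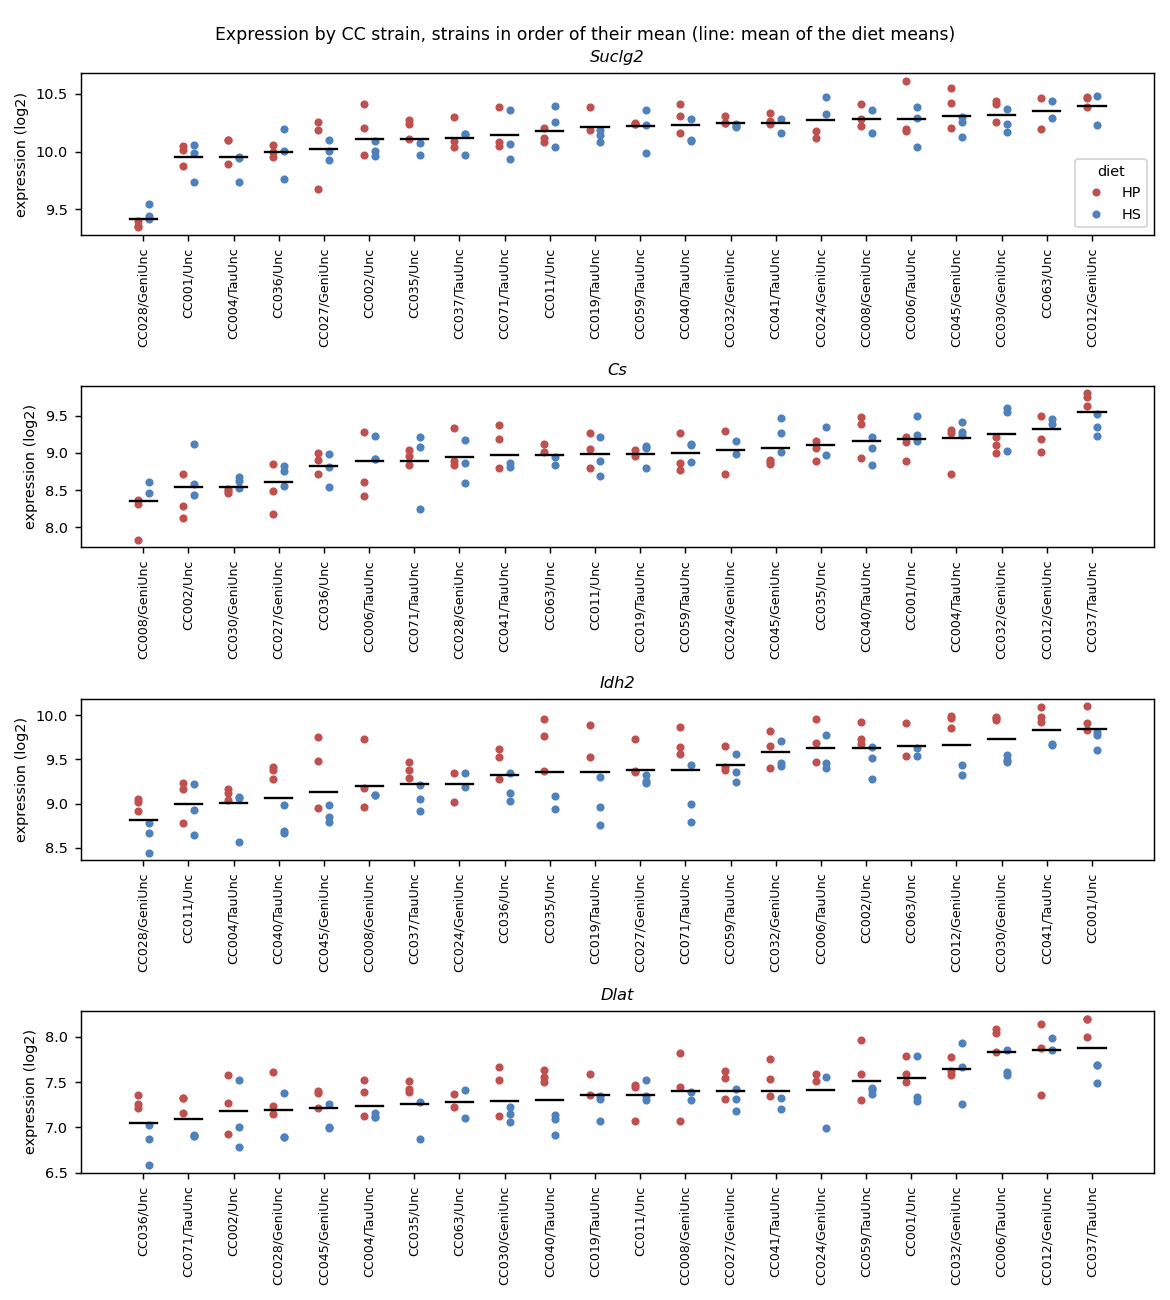
Expression (log2) of *Suclg2*, *Cs*, *Idh2* and *Dlat* in each mouse by CC strain, with strains in the order of their mean (line, the mean of both diet means) and diet by color. For *Suclg2* the 6 mice of CC028/GeniUnc stand alone at 9.34 to 9.55, while the other 3 genes rise over the strains in small steps.

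The other enzymes varied less. Strain means spanned 0.40 in *Aco1*, from CC011/Unc (9.42) to CC032/GeniUnc (9.82), 0.54 in *Fh1*, from CC030/GeniUnc (9.45) to CC011/Unc (9.98), 0.55 in *Idh3a*, from CC001/Unc (6.81) to CC004/TauUnc (7.36), and 0.28 in *Mdh2*, from CC008/GeniUnc (9.51) to CC011/Unc (9.79). The median span over all genes was 0.71. The mice of the lowest and the highest strain overlapped in *Idh3a*, and did not in the other 8 genes, where the strains were picked as the extremes. Strains did not hold 1 rank over the enzymes. CC028/GeniUnc was among the 3 lowest strains in 5 of the 9 genes, CC032/GeniUnc and CC037/TauUnc were among the 3 highest in 4, CC030/GeniUnc was among the 3 lowest in 4 and the 3 highest in 2, and CC011/Unc was among the lowest in 2 and the highest in 2.

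The diet difference of each enzyme was then compared between strains, with an F test of 21 interaction terms. It was called for 0 of the 9 enzymes by limma (adjusted p = 0.99987 for each), and 0 also passed an unadjusted p under 0.05, the lowest being 0.082 in *Idh2*. Over all genes 2 were called (0.0183%), and 524 (4.79%) had an unadjusted p under 0.05. With 2 or 3 mice per strain and diet, the differences of single strains are imprecise. For *Idh2* they ran from −0.09 to 0.70, for *Idh3a* from −0.16 in CC008/GeniUnc to 0.70 in CC063/Unc, and for *Dlat* from −0.12 in CC012/GeniUnc to 0.51 in CC040/TauUnc.

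**Figure D4:**
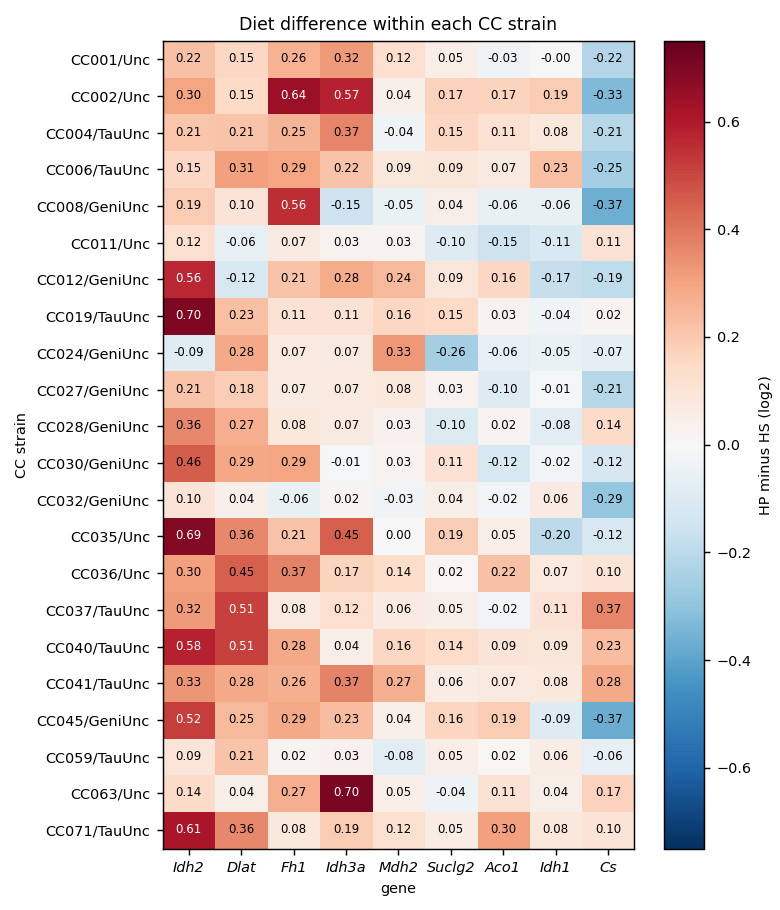
Difference HP minus HS (log2, color and printed value) of each enzyme in each of the 22 CC strains, with genes ordered from the largest to the smallest difference over all mice. The columns of *Idh2*, *Fh1*, *Dlat* and *Idh3a* are positive in 20 or 21 strains, and that of *Cs* in 9.

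Last, the enzymes were compared with each other over the 22 strain means. None of the 36 pairs passed after Benjamini-Hochberg adjustment over the pairs (2-sided permutation test of 100000 permutations), and 26 of the 36 Pearson correlations were positive, with a median r of 0.075. The closest pair was *Dlat* and *Idh1* (r = 0.546, permutation p = 0.0084, adjusted p = 0.25, Spearman's rho = 0.337 with permutation p = 0.12), where r was 0.541 without the 2 strains farthest from the median of *Dlat*. *Cs* and *Aco1* had r = 0.476 (permutation p = 0.025, adjusted p = 0.25, rho = 0.511 with permutation p = 0.017), and 0.452 without 2 strains. *Idh2* and *Suclg2*, both lowest in CC028/GeniUnc, had r = 0.455 (permutation p = 0.028, adjusted p = 0.25, rho = 0.317 with permutation p = 0.15), and 0.409 without 2 strains. *Dlat* and *Cs* had r = 0.467 (permutation p = 0.028, adjusted p = 0.25, rho = 0.438 with permutation p = 0.043). Here r fell to 0.178 without the 2 strains farthest from the median of *Dlat*. The unadjusted p was under 0.05 in 5 pairs, the fifth being *Dlat* and *Aco1* (r = 0.448, permutation p = 0.038).

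**Figure D5:**
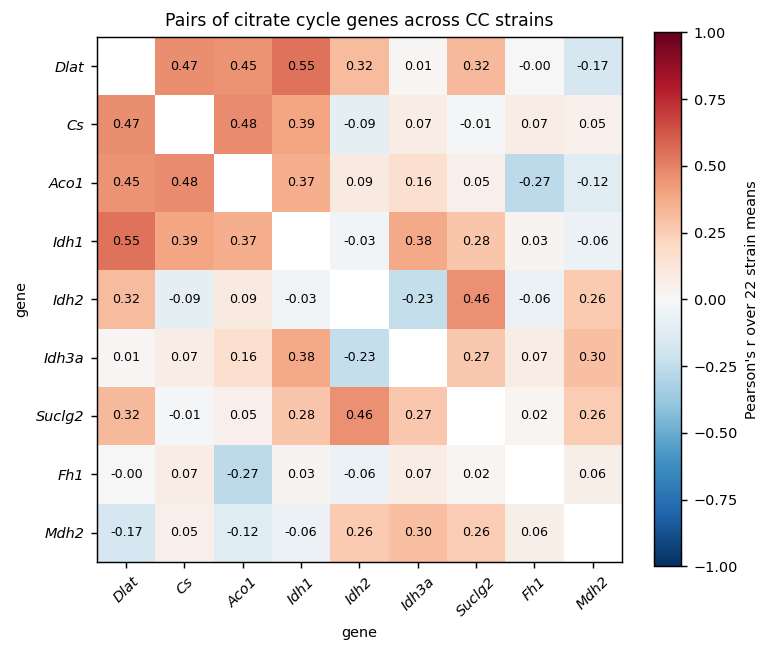
Pearson's r (color and printed value) of each pair of the 9 enzymes over the 22 strain means, each the mean of both diet means. The values run from −0.265 for *Aco1* and *Fh1* to 0.546 for *Dlat* and *Idh1*.

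Outside the list, the genes most like each enzyme were taken by the highest Pearson r over the 44 means of strain and diet, which share strains and diets, so r is a description. For *Dlat* they were *Acss2*, the cytosolic acetyl-CoA synthetase (r = 0.834), *Chrna4* (0.803) and *Pdzk1ip1* (0.749), and for *Cs* the fatty acid synthase *Fasn* (0.674), *Esyt1* (0.672) and the citrate carrier *Slc25a1* (0.665). *Idh2* was closest to *Atp5b*, a subunit of ATP synthase (0.771), *Lpcat3* (0.694) and *Ktn1* (0.686), and *Mdh2* to *Atp5a1*, another subunit (0.757), *Tsc1* (0.672) and *Ptpn21* (0.653). *Idh3a* was closest to *Cox5a*, a subunit of cytochrome c oxidase (0.629), *Dcxr* (0.615) and *Gstt3* (0.592). *Fh1* was closest to *Mospd1* (0.721), the urea cycle enzyme *Asl* (0.697) and *Pnpla8* (0.686). *Idh1* was closest to *2310039H08Rik* (0.768), *Pxdc1* (0.740) and the sterol synthesis enzyme *Msmo1* (0.720), *Aco1* to the mitochondrial peptidase *Mipep* (0.729), *Shmt1* (0.678) and *Mgam* (0.652), and *Suclg2* to *Sult1d1* (0.742), *Slco1a4* (0.717) and *Serpina1a* (0.702).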

How the data were processed

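The authors hybridized liver RNA to Affymetrix Mouse Gene 2.1 ST arrays, 1 per mouse, and deposited log2 expression made by RMA over all arrays (background correction, sketch-quantile normalization and median polish). Affymetrix Expression Console is named in the submitters' processing notes, and tool versions were not given in the sources used here. Values for 41345 transcript clusters were read, and 0 columns were without a mouse. The study's methods had week, as the batch of a mouse, in a model of heritability, but the week and the array plate of each mouse were not used here, and batch was therefore no term of any fit. Strain and diet came from the labels, and each replicate was a separate mouse.

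Genes were named from the platform annotation, using the 23521 clusters with 1 symbol. The filter kept clusters above 4.08, the mean of their medians, by their median or in over 12.5% of mice. Each gene was read from its brightest cluster (10942 genes). Diet, strain and their interaction were fitted with limma 3.58.1 (R 4.3.3), with Benjamini-Hochberg adjustment over all genes at 0.05. Correlations and log ratios were tested by permutation in Python 3.11.15 (numpy 2.4.6, scipy 1.17.1). The limma steps were tested on simulated data. The 9 genes, the gene lists and the tests were chosen with earlier results of these data known. Named genes are the 9 enzymes, up to 4 genes of each pathway list with the smallest p by diet, any called gene of a list with 5 or fewer calls, and the 3 genes most like each enzyme over the 44 means of strain and diet. Partner subunits and isoenzymes outside this rule, genes called in the block fit alone and the marker *Cps1* were named after their values were seen. Alternatives changed the scaling, filter, variance prior, weights, covariates, clusters and mice.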

Additional observations from a re-analysis of the deposited data

Results flagged for a closer look

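Within each strain of 4 to 6 mice, the highest and the lowest mouse were set against the others with Dixon's gap ratio, for 9 genes in 22 strains. Of these groups of mice, 10 (5.05%) held a mouse past the 95% critical value, and chance gives about 1 in 20 where all mice share 1 distribution. Each group pooled both diets, so a flagged mouse was not set against its own diet alone, also for genes that differed by diet.

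Low mice were found for *Dlat* in CC024/GeniUnc (6.99 on the HS diet, the others at 7.52 to 7.59), *Cs* in CC004/TauUnc (8.71 on the HP diet, the others at 9.24 to 9.41), *Idh1* in CC045/GeniUnc (10.12 on the HP diet, the others at 10.34 to 10.46) and *Idh2* in CC004/TauUnc (8.56 on the HS diet, the others at 9.04 to 9.17). *Suclg2* in CC059/TauUnc was low (9.98, the others at 10.23 to 10.36) in the HS mouse whose profile was closest to CC035/Unc. High mice were all on the HP diet. They were *Idh2* in CC008/GeniUnc (9.73, the others at 8.96 to 9.18) and in CC027/GeniUnc (9.73, the others at 9.23 to 9.37), *Idh1* in CC037/TauUnc (10.71, the others at 10.37 to 10.43), *Idh3a* in CC032/GeniUnc (7.12, the others at 6.95 to 7.01) and *Suclg2* in CC032/GeniUnc (10.31, the others at 10.21 to 10.25).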

How the results depend on the processing

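By diet, 4 to 6 of the 9 enzymes were called under 14 alternatives of scaling, filter, variance prior, weights, covariates and mice (5 in the original fit). *Mdh2* was lost (4 called) with quantile normalization repeated, with no expression filter and with the clock score, and *Suclg2* was gained (6 called, adjusted p = 0.029) with strain as a block and centred arrays, chosen after seeing the data. Leaving out 1 strain gave 4 to 5 called, and leaving out replicate 1, 2 or 3 of each strain and diet gave 3 to 5, *Idh3a* and *Mdh2* being lost without replicate 1 and *Dlat* and *Mdh2* without replicate 2. *Idh2* and *Fh1* were called under all 39 alternatives run. The difference of *Idh1* changed sign with repeated quantile normalization (−0.0026), with array weights (−0.019) and without replicate 1 (−0.013, against 0.0477 without replicate 2), and was called under none. Calls over all genes by diet fell from 1248 to 430 without replicate 1 and 588 without replicate 2, and rose to 2544 with strain as a block (1985 to 2546 with a further change). By strain, 8 to 9 were called without 1 strain, 7 to 8 without 1 replicate, and 6 within each diet, where fewer mice enter (all genes 8897, HP only 5980, HS only 5756). The cause of the other changes was not tested. The interaction was called for 0 enzymes and the correlation for 0 of 36 pairs under every alternative run. No paired analysis was possible because the replicate numbers of the 2 diets name separate mice with no shared label. The next brightest cluster existed for *Suclg2* only. The number of mice, not read depth, limits precision.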
